A study of Mus musculus with 6 samples.

Results

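Matricellular proteins, proteoglycans and the elastic fibre were described at the level of messenger RNA through 10 genes: Sparc, Postn, Thbs1, Thbs2, Fn1, Dcn, Lum, Bgn, Fbn1 and Eln. They were taken by symbol, and all 10 were found once among the 21956 genes of the deposited table. Whole livers of 6 mice were sequenced after enrichment of polyadenylated RNA. The knockout group, Stingfl/fl Cdh5-Cre+, has 3 mice in which Cre is driven from the promoter of Cdh5 (VE-cadherin, an endothelial cell adhesion molecule), so that the innate immune adaptor Sting is deleted in endothelial cells. The control group, Stingfl/fl Cdh5-Cre-, has 3 littermates with the same floxed alleles and no Cre. All 6 mice were kept on chow to 8 weeks of age and then given CDAHFD, a high-fat diet that lacks choline and is made from defined amino acids, during 10 weeks. This diet produces fatty, inflamed and scarred liver. No mouse kept on chow was analysed here, so each difference is between 2 groups of diseased livers. Cre is present in the knockout mice alone, so its own effect and that of losing Sting cannot be told apart. The sources used here do not give strain, sex or whether Cre was inducible.

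The proteins encoded by these genes lie between the collagen fibres of a scar. Matricellular proteins such as SPARC, periostin and the thrombospondins add little mechanical strength, and instead bind collagens, integrins and growth factors. Small leucine-rich proteoglycans (decorin, lumican and biglycan) coat collagen fibrils, set their diameter and hold TGF-beta, the main profibrotic cytokine. Elastic fibres consist of an elastin core on a scaffold of fibrillin microfibrils, and they accumulate late in liver fibrosis and are slow to be removed. In liver, stellate cells, portal fibroblasts and the myofibroblasts derived from them make most of these products. Fibronectin is an exception, because hepatocytes secrete its plasma form in large amounts.

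The libraries held 16704663 to 21025466 counts. Sting1 checked the labels: its count was 106, 114 and 80 in the knockout livers (replicates 1 to 3, the order used throughout) and 240, 365 and 226 in the control livers, without overlap. Its log2 fold change was -1.29, with an adjusted p of 0.357 in edgeR's quasi-likelihood test and 0.00197 in DESeq2, each a model of counts fitted over all genes. The labels name liver sinusoidal endothelial cells as the cell type, but Alb, the hepatocyte gene for serum albumin, took 6.91% to 10.9% of the counts in each library, and its TPM was at least 65800 where that of the endothelial marker Pecam1 was at most 32.1. TPM counts transcripts per 1e6 in a library, scaled to gene length. The values are therefore those of whole liver. In such bulk samples fewer cells of a type and less RNA per cell cannot be told apart. Control replicate 2 stood apart, with the lowest Alb share and a scaling factor (TMM, which corrects for differences in composition) of 1.26 against 0.922 to 1.01 in the other libraries.

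Of the 10 genes, 9 were lower on average in the knockout livers and Fn1 was higher, with no difference that passed the test over all genes. The largest differences were in Eln, Thbs1 and Fbn1, which stood at 42.5%, 48.2% and 49.6% of the control level, and the smallest was in Dcn, at 84.9%. The median log2 fold change of the 10 was -0.63, against 0.01 over the 13197 genes tested, of which 48.8% were below 0. In edgeR's quasi-likelihood test with Benjamini-Hochberg adjustment none of the 10 passed 0.05 (adjusted p from 0.384 to 0.705), nor did any gene of the table (0.00%). At an unadjusted p under 0.05 edgeR counted 3 of the 10, Sparc, Postn and Fbn1, all lower, where 7.00% of all genes were lower and 3.75% higher at that threshold. DESeq2 called 127 genes in all (0.920%; 0.623% lower) and none of the 10. Of the 10, 7 had an unadjusted p under 0.05 in DESeq2, of which 6 were lower, where 5.75% of all genes were lower at that threshold. limma-voom called no gene, with the same 3 as edgeR at an unadjusted p under 0.05.

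The pattern over libraries was not a plain split between the groups. Control replicate 2 was the highest of the 6 libraries in 8 of the 10 genes, against 25.3% of all genes tested. In 7 of the 10 genes control replicates 1 and 2 both lay above every other library, against 13.8% of all genes. Control replicate 3 lay inside the knockout range in 8 genes and below it in Thbs2 and Fn1; by total counts it lay inside in 6, above in 2 and below in 2. None of the 10 was lower in every knockout than in every control library after TMM scaling, against 9.14% of all genes. With control replicate 3 left out that number was 7 of 10, against 17.7% of all genes, and with knockout replicate 1 left out it was 4, against 16.3%. By total counts and in TPM it was 2, Sparc and Fbn1, against 19.5% and 18.6% of all genes. With control replicate 2 left out the median of the 10 was -0.29, with 8 genes below 0 (47.7% of all genes) and 1 at an unadjusted p under 0.05 (4.13% of all genes lower at that threshold). The number at that threshold was 8 with control replicate 3 removed and 4 with knockout replicate 1 removed, where 8.63% and 7.35% of all genes were lower. It was 2 without control replicate 1, 1 without knockout replicate 2 and 0 without knockout replicate 3, where 4.29%, 6.82% and 3.61% of all genes were lower.

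**Figure D1:**
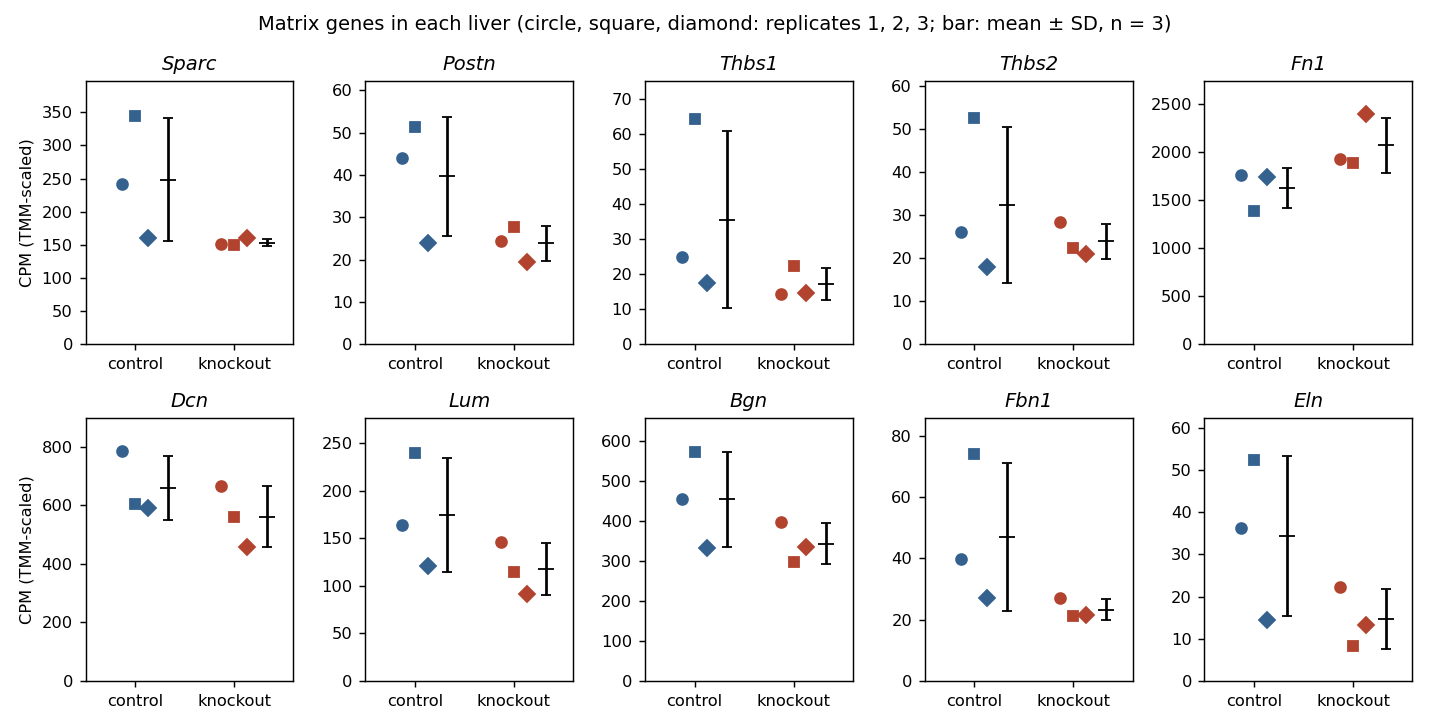
Counts per 1e6 (CPM, scaled by TMM) of the 10 matrix genes, 1 panel a gene with its own axis from 0. Points are single livers (circle, square and diamond for replicates 1, 2 and 3) and the bar is mean ± SD over 3. The control square, replicate 2, is the highest point in 8 panels, and the control diamond, replicate 3, lies among the knockout points in 8.

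Matricellular genes were described first. Sparc (ENSMUSG00000018593, chromosome 11, 55394500 to 55423183, minus strand; all positions are on GRCm38) encodes osteonectin, a collagen-binding glycoprotein secreted by activated stellate cells and by endothelium. In CPM, counts per 1e6 scaled by TMM, its level was 151, 149 and 160.2 CPM in the knockout livers and 241, 345 and 159.7 CPM in the control livers. The knockout livers were close to each other, at 153 ± 5.99 CPM (SD, n = 3), whereas the control livers spread widely, at 249 ± 92.7 CPM (SD, n = 3). Its log2 fold change was -0.70 (standard error 0.26; edgeR adjusted p = 0.405), and -0.38 without control replicate 2. Control replicate 3 overlapped the knockout livers by a margin that depended on scaling: by total counts alone it stood at 155.7 CPM against at most 148.6 in the knockout, and the groups did not overlap.

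Postn (ENSMUSG00000027750, chromosome 3, 54361109 to 54391037, plus strand) encodes periostin, which binds integrins and promotes collagen assembly. Levels were 24.4, 27.7 and 19.4 CPM in the knockout livers and 43.9, 51.2 and 24.0 CPM in the control livers. Control replicates 1 and 2 were high and control replicate 3 lay between the knockout livers. The log2 fold change was -0.74 (standard error 0.27; edgeR adjusted p = 0.403).

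The thrombospondins were read side by side. Thbs1 (ENSMUSG00000040152, chromosome 2, 118111876 to 118127133, plus strand) encodes thrombospondin-1, which binds CD36 and CD47 and can release active TGF-beta from its latent complex. It stood at 14.4, 22.4 and 14.6 CPM in the knockout livers and 24.9, 64.4 and 17.4 CPM in the control livers. Control replicate 2 was 3.04 times the mean of the other control livers, the largest such ratio of the 10 genes. On the log2 scale the fold change was -1.05 (standard error 0.49; edgeR adjusted p = 0.494), and -0.30 without control replicate 2. Thbs2 (ENSMUSG00000023885, chromosome 17, 14665500 to 14694235, minus strand) encodes thrombospondin-2, which shares the CD36 and CD47 binding and lacks the sequence that activates TGF-beta. It stood at 28.5, 22.4 and 20.9 CPM in the knockout livers and 26.2, 52.7 and 18.0 CPM in the control livers. Apart from control replicate 2 the groups lay in one range, and the lowest of the 6 livers was control replicate 3. The log2 fold change of -0.43 (standard error 0.36; edgeR adjusted p = 0.685) became 0.12 without that high library, the only change of sign among the 10 genes over the alternatives run. In TPM, Thbs1 over Thbs2 was 0.510, 1.01 and 0.701 in the knockout livers and 0.959, 1.23 and 0.975 in the control livers, so that knockout replicate 2 lay among the control livers and the ratio overlapped between the groups.

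Fibronectin was the only one of the 10 with a higher mean in the knockout livers. Fn1 (ENSMUSG00000026193, chromosome 1, 71585520 to 71653200, minus strand) encodes the adhesive glycoprotein that integrins assemble into the first scaffold of a wound. Its level was 1933, 1884 and 2398 CPM in the knockout livers and 1759, 1384 and 1738 CPM in the control livers. All 3 knockout livers were above all 3 control livers, as in 7.25% of all genes tested. The difference on the log2 scale was 0.35 (standard error 0.22; edgeR adjusted p = 0.580). The two-sided exact permutation test over the 6 livers gave p = 0.1, the smallest that 3 against 3 allows. This separation rested on the scaling: by total counts alone knockout replicate 2 stood at 1773 CPM against 1781 in control replicate 1, and in TPM the groups overlapped as well. Control replicate 2, the highest library for 8 of the other genes, was the lowest for Fn1 after TMM scaling, but not by total counts (1739 CPM, against 1694 in control replicate 3) or in TPM (440.2 against 400.4). The same library was the lowest for Alb, which took 6.91% of the counts there against 9.07% and 9.61% in the other control livers and 9.60% to 10.9% in the knockout livers. Within each library the ratio of Fn1 to Alb in TPM was 0.00482, 0.00491 and 0.00545 in the knockout livers and 0.00523, 0.00669 and 0.00469 in the control livers, so on that ratio the groups overlapped. The table gives 1 value per gene, so that plasma and cellular splice forms of Fn1 were not separated.

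**Figure D2:**
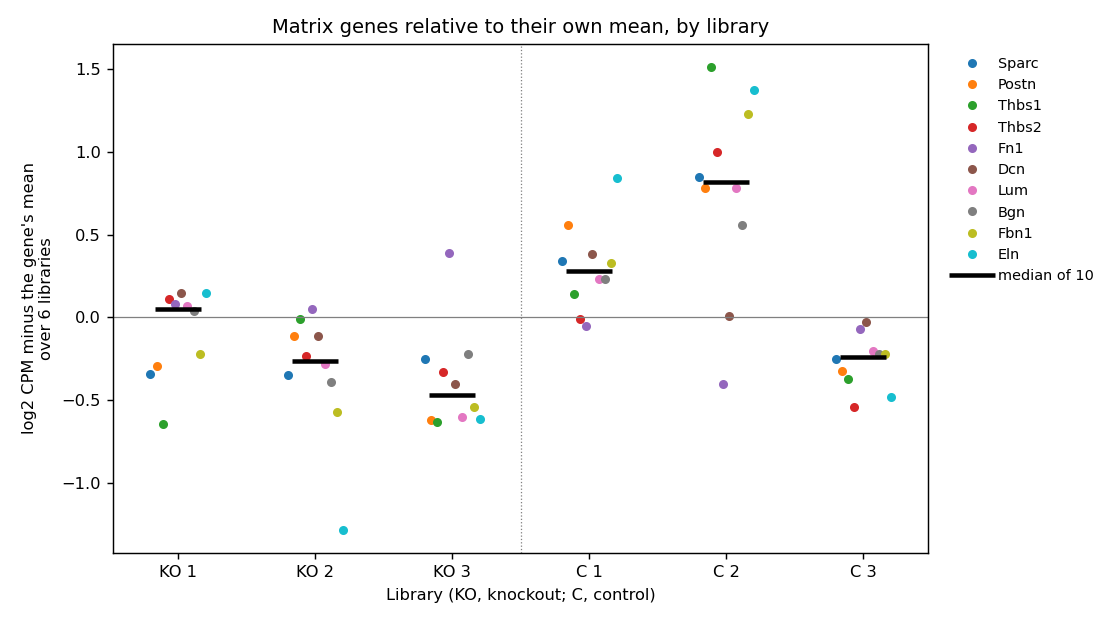
Each point is the log2 CPM of 1 gene in 1 library minus that gene's mean over the 6 libraries, and the black bar is the median of the 10 genes. The medians are 0.05, -0.26 and -0.47 in the knockout libraries (replicates 1 to 3) and 0.28, 0.82 and -0.24 in the control libraries; Fn1 and Dcn lie apart from the other genes in control replicate 2.

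Small leucine-rich proteoglycans included Dcn, the gene with the highest mean TPM of the 10, and the smallest of the negative differences. Dcn (ENSMUSG00000019929, chromosome 10, 97479609 to 97518143, plus strand) encodes decorin, which binds collagen I and holds TGF-beta. Lum (ENSMUSG00000036446, chromosome 10, 97565128 to 97572703, plus strand) encodes lumican, a keratan sulfate proteoglycan of collagen fibrils, and lies on the same strand just downstream of Dcn. Bgn (ENSMUSG00000031375, chromosome X, 73483602 to 73495933, plus strand) encodes biglycan, whose soluble form is a ligand of TLR2 and TLR4.

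Dcn stood at 666, 559 and 457 CPM in the knockout livers and 786, 605 and 589.7 CPM in the control livers, and was the only one of the 10 genes with its highest CPM in control replicate 1 (in TPM control replicate 2 was slightly higher, at 838 against 823). Lum stood at 146, 114 and 91.9 CPM in the knockout livers and 164, 239.7 and 121 CPM in the control livers. Bgn stood at 398, 296 and 334 CPM in the knockout livers and 456, 573 and 333 CPM in the control livers. In all 3 genes knockout replicate 1 was the highest of its group, and at least 1 control liver lay within the knockout range. The log2 fold changes were -0.24 for Dcn (standard error 0.22), -0.57 for Lum (0.27) and -0.40 for Bgn (0.23), with edgeR adjusted p of 0.705, 0.488 and 0.560. Without control replicate 2 those of Lum and Bgn were -0.27 and -0.19. That of Dcn was -0.29 then, -0.08 without control replicate 1 and -0.10 without knockout replicate 3.

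The balance between lumican and decorin differed in 1 liver only. In TPM, Lum over Dcn was 0.158, 0.147 and 0.145 in the knockout livers and 0.149, 0.285 and 0.148 in control replicates 1 to 3. All livers but 1 thus shared nearly one ratio in both genotypes, and control replicate 2 stood far above it. Bgn over Dcn was also highest in control replicate 2, at 0.688 against 0.385 to 0.532 in the other 5. These ratios were picked after the values were seen.

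**Figure D3:**
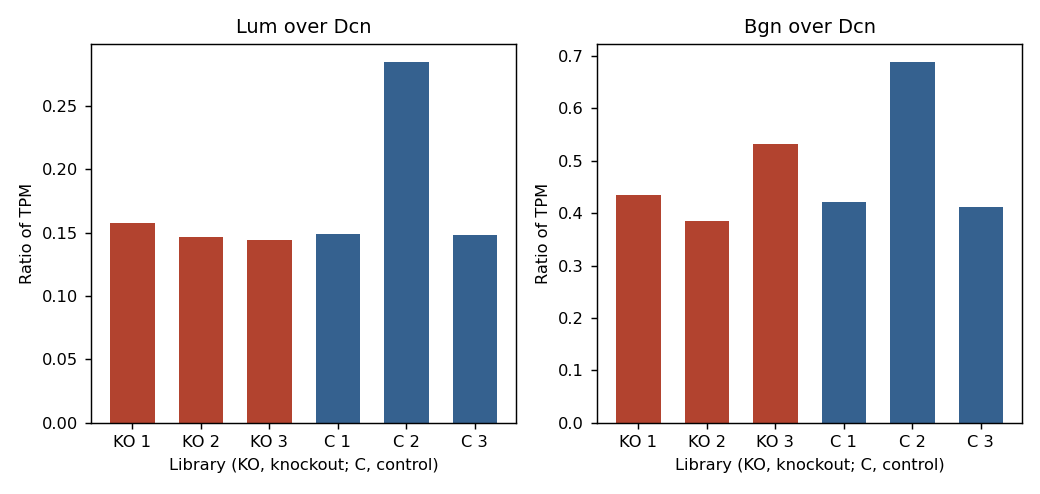
Ratio of TPM of Lum to Dcn (left) and of Bgn to Dcn (right) in each of the 6 libraries; bars start at 0, red for knockout and blue for control. The left panel is nearly flat except for control replicate 2 at 0.285.

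Elastic fibre genes included the largest differences. Fbn1 (ENSMUSG00000027204, chromosome 2, 125300594 to 125507993, minus strand) encodes fibrillin-1, the microfibril protein that also anchors latent TGF-beta through its binding proteins. It stood at 27.1, 21.2 and 21.6 CPM in the knockout livers and 39.8, 74.0 and 27.0 CPM in the control livers. The groups touched at knockout replicate 1 and control replicate 3, and by total counts or in TPM they did not overlap. The log2 fold change was -1.01 (standard error 0.33), with the smallest edgeR adjusted p of the 10 genes, 0.384, and was -0.51 without control replicate 2. Eln (ENSMUSG00000029675, chromosome 5, 134702593 to 134747323, minus strand) encodes tropoelastin, the soluble precursor that lysyl oxidases cross-link into the elastic core. It stood at 22.3, 8.26 and 13.2 CPM in the knockout livers and 36.3, 52.4 and 14.4 CPM in the control livers. Eln had the widest range over the 6 livers of the 10 genes, 2.65 on the log2 scale, and knockout replicate 1 lay above control replicate 3. The log2 fold change was -1.23 (standard error 0.52; edgeR adjusted p = 0.465), -0.78 without control replicate 2 and -1.60 without control replicate 3.

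Both elastic fibre genes also share a sequence match that the search described below did not find in the other 8. The miR-29 family is known to repress matrix genes, in stellate cells among others, by pairing of its seed (bases 2 to 8) with sites in 3′ UTRs. The 3 mature forms, credited to RefSeq on GRCm38.p6, have 1 seed, in capitals here, 5′ to 3′:
mmu-miR-29a-3p: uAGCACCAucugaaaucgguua
mmu-miR-29b-3p: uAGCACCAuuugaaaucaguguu
mmu-miR-29c-3p: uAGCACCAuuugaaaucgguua

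The reverse complement of the seed, TGGTGCT, was searched on the transcript strand in the longest annotated 3′ UTR of each gene (GENCODE M21, GRCm38). Fbn1 held it at 2 places and Eln at 3, in 3′ UTRs of 992 and 1188 bases, and the other 8 genes at none. Of 21005 genes with a 3′ UTR 13.1% held it, and of 3′ UTRs between 80% and 125% of the length of those of Fbn1 and Eln 9.78% and 11.9% did. The 3′ UTRs of Thbs1 and Thbs2, of 2104 and 2013 bases, are longer and hold no match, although the log2 fold change of Thbs1 was -1.05 and that of Fbn1 -1.01. Shorter matches to the seed were not searched. The sites are shown because this search found the match in Fbn1 and Eln alone of the list, with the match in capitals, on the minus strand of the genome and written 5′ to 3′ as in the transcript:
Fbn1 site 1, chr2:125301173-125301195: tttctgttgtctgttTGGTGCTa
Fbn1 site 2, chr2:125300923-125300945: tgtgagggtttgtaaTGGTGCTt
Eln site 1, chr5:134703736-134703758: cgacctcatcaacgtTGGTGCTa
Eln site 2, chr5:134703489-134703511: atctccaagggaaatTGGTGCTa
Eln site 3, chr5:134703476-134703498: attggtgctacatgtTGGTGCTt

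Site 1 of Fbn1 and sites 1 and 2 of Eln are followed by an A, which extends the match of a canonical site. Sites 2 and 3 of Eln lie so close that the stretches printed overlap. miRNAs were not measured here, a match is not shown to be a working site, and the search was chosen after the values of the genes were seen.

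**Figure D4:**
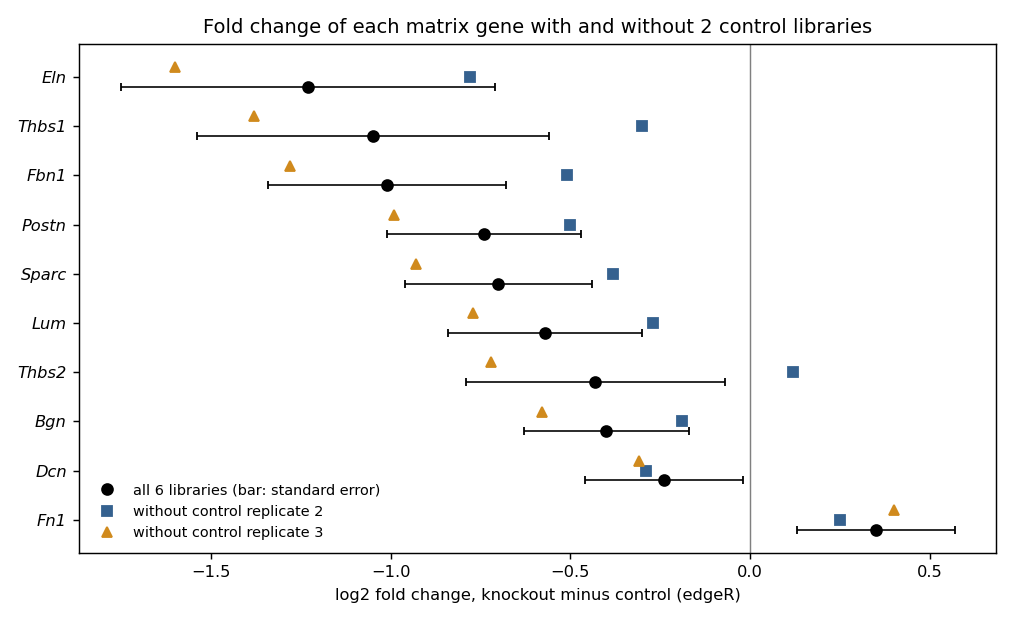
log2 fold change (knockout minus control, edgeR) of each gene with all 6 libraries (black, bar: standard error), without control replicate 2 (blue squares) and without control replicate 3 (orange triangles). The 9 negative values move towards 0 without control replicate 2, except that of Dcn, and Thbs2 passes 0; all 9 are further from 0 without control replicate 3.

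Compared per length, the genes spanned about 2 orders of magnitude. Mean TPM in the control livers was 750 for Dcn, 422 for Fn1, 389 for Bgn, 234 for Sparc and 150 for Lum. It was 27.5 for Postn, 20.2 for Eln, 13.3 for Thbs1, 11.8 for Thbs2 and 10.2 for Fbn1. In the knockout livers it was 536, 456, 238, 116 and 80.7 for the first 5 in that order, and 13.4, 7.24, 4.93, 6.82 and 3.95 for the other 5. The order Bgn, Sparc, Lum, Postn and Eln was the same in all 6 libraries. Dcn was above Fn1 in 5 of 6 libraries, Fn1 above Bgn in 5, Eln above Thbs2 in 5, Thbs2 above Thbs1 in 4 and Thbs1 above Fbn1 in 5. The order of these neighbours thus changed between libraries, and their differences were not tested. The summed TPM of the 10 genes was 1580, 1396 and 1413 in the knockout livers and 1984, 2614 and 1486 in the control livers. Knockout replicate 1 and control replicate 3 overlapped (two-sided exact permutation p = 0.2). Fn1 made up 26.7%, 30.0% and 37.4% of that sum in the knockout livers and 21.4%, 16.8% and 26.9% in the control livers.

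Genes of the same classes outside the list were read in the same fit. Among 16 tested genes of elastic fibres and microfibrils 15 were below 0 (48.8% of all genes), with a median log2 fold change of -0.72. None passed the adjusted test, and 7 were lower at an unadjusted p under 0.05 (7.00% of all genes). Ltbp2, a fibrillin-binding protein of the latent TGF-beta binding family, stood at 10.3 ± 1.67 CPM (SD, n = 3) in the knockout and 23.7 ± 12.9 CPM in the control livers. Lox, the lysyl oxidase that cross-links elastin and collagen, stood at 7.47 ± 1.09 and 15.7 ± 7.68 CPM, and Efemp1, a fibulin, at 19.6 ± 1.22 and 26.4 ± 3.61 CPM. In these 3 genes, picked for their small p, the groups did not overlap after TMM scaling, as in 9.14% of all genes. In TPM those of Ltbp2 overlapped, with knockout replicate 1 at 3.56 and control replicate 3 at 3.51. The 15 below 0 were again 15 without control replicate 2 or control replicate 3, but the median was -0.34 and -0.97. The number at an unadjusted p under 0.05 was then 2 and 13 (4.13% and 8.63% of all genes lower). That number was 3 without knockout replicate 2 and 4 without control replicate 1 (6.82% and 4.29% of all genes lower). Mfap5 was too low to be tested and had 0 counts in all 6 libraries.

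Among 12 tested matricellular genes outside the list 9 were below 0 (48.8% of all genes), with a median of -0.41. At an unadjusted p under 0.05, 3 were lower (7.00% of all genes), and none passed after adjustment in edgeR. Ccn2, encoding connective tissue growth factor, a target gene of both YAP and TGF-beta, had a log2 fold change of -1.64 (standard error 0.25), Ccn4 one of -1.25 (0.33), and Spp1, which encodes osteopontin, one of -1.21 (0.39). Those above 0 were Smoc1, Ccn1 and Ccn5, at 0.23, 0.44 and 0.58, so that genes of the CCN family did not share a direction. Ccn2 stood at 22.4, 17.9 and 22.5 CPM in the knockout livers and 67.7, 86.4 and 42.0 CPM in the control livers, without overlap, and passed in DESeq2 (adjusted p = 8.02e-06) and not in edgeR (adjusted p = 0.357). Without control replicate 2 the median was -0.24, with 8 below 0, and without control replicate 1 it was -0.25, with 9. Thbs4, Comp and Ccn3 were too low to be tested in the main fit. With no filter on low counts 15 genes were tested, with 9 below 0 (50.2% of all genes) and a median of -0.21. All 6 tested small leucine-rich proteoglycans outside the list were below 0, with a median of -0.43, and none had an unadjusted p under 0.05. Ecm2, Ogn and Podn had log2 fold changes of -0.60, -0.83 and -0.44. The median depended on single libraries: it was -0.19, -0.45 and -0.66 when control replicates 1, 2 and 3 were left out in turn, and -0.69, -0.26 and -0.32 when knockout replicates 1, 2 and 3 were. Without either of control replicates 1 and 2, 5 of the 6 were below 0.

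Other proteoglycans showed no common direction. Of 14 large, basement membrane and cell surface proteoglycans 7 were below 0, with a median of -0.03. Prg4, which encodes the lubricating proteoglycan 4, stood at 69.5 ± 11.1 CPM (SD, n = 3) in the knockout and 48.5 ± 7.47 CPM in the control livers. Sdc1, a heparan sulfate syndecan of the hepatocyte surface, stood at 199 ± 19.4 and 156 ± 7.58 CPM, and the basement membrane proteoglycan Agrn at 36.9 ± 4.30 and 51.6 ± 14.6 CPM. None of the 3 passed (edgeR adjusted p of 0.381, 0.440 and 0.447). By total counts 11 of the 14 were below 0, as were 78.8% of all genes, whose median was -0.21 on that scale; that of the list was -0.01 relative to it.

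Receptors that bind or clear these proteins had a median of -0.10, with 15 of 20 below 0 (48.8% of all genes). At an unadjusted p under 0.05, 3 were lower (7.00% of all genes), and none passed after adjustment in edgeR. Those 3 were integrin chains: Itgb8, whose heterodimer with the alpha-v chain activates latent TGF-beta (-1.82, standard error 0.44), Itga8, a stellate cell receptor chain for fibronectin (-1.11, 0.35), and Itgav itself (-0.35, 0.15). Itgb8 passed in DESeq2 (adjusted p = 0.0123) and not in edgeR (adjusted p = 0.367). By total counts 19 of the 20 were below 0 (78.8% of all genes on that scale). Without knockout replicate 3 the number was 10 of 20 and the median -0.01, and without knockout replicate 2 the median was -0.18. Among 6 TGF-beta ligands and receptors 5 were below 0, with a median of -0.26. Tgfb2, Tgfb3 and Tgfbr1 had log2 fold changes of -1.21, -0.98 and -0.43, at an unadjusted p under 0.05 and with edgeR adjusted p of 0.367, 0.381 and 0.441. Without control replicate 2 the medians of the receptors and of the TGF-beta genes were -0.04 and -0.20. In that fit 2 and 1 genes were lower at an unadjusted p under 0.05 (4.13% of all genes).

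Markers of the cells that make matrix were summed per library. Of 10 activated fibroblast markers none was at 0 in any library. The summed CPM of the 9 tested was 580, 637 and 669 in the knockout livers and 927, 1727 and 618 in the control livers. All 9 were below 0, and in the sum control replicates 1 and 2 again stood above the other 4. The largest terms of that sum were Col3a1, Col1a2 and Col1a1, at a mean of 567.6, 212.4 and 167.5 CPM in the control livers. Lox, Pdgfra and Loxl2 had log2 fold changes of -1.07, -0.69 and -0.58, and the contractile markers Acta2 and Tagln -0.15 and -0.26. Without control replicate 2 the median of the list moved from -0.69 to -0.25, with 7 of 9 below 0. Stellate cell markers, also none at 0, summed to 444, 383 and 389.8 CPM in the knockout livers and 500.1, 325 and 415 CPM in the control livers, with 6 of 10 below 0 (8 of 10 by total counts). Control replicate 2 had the lowest of these stellate sums after TMM scaling, but by total counts they were 409, 360.1 and 362 CPM in the knockout livers and 506, 408 and 405 CPM in the control livers, where it was not the lowest. Ngfr, Pdgfrb and Hand2, of smallest p, had log2 fold changes of -0.70, -0.31 and -0.29. Colec10, Colec11, Ecm1 and Des, the 4 above 0 and named for that reason after their values were seen, had 0.66, 0.24, 0.18 and 0.04. The median of the stellate list was -0.15, and it was -0.04 or -0.05 with knockout replicate 2 or 3 left out. Leaving out control replicate 1 turned it to 0.10, with 4 of 10 below 0.

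Portal fibroblast and mesothelial markers summed to 93.0 to 160.4 CPM in the knockout and 124 to 259 CPM in the control livers, with 4 of 7 tested genes below 0 (6 of 7 by total counts). Gas6, Cd34 and Thy1 had log2 fold changes of -0.68, -0.58 and 0.72. Upk1b was at 0 in 5 of the 6 libraries, and Msln and Upk3b were each at 0 in 3. Smooth muscle markers summed to 20.9 to 29.3 CPM in the knockout and 21.3 to 31.6 CPM in the control livers, with 1 of 4 tested genes below 0 (4 of 4 by total counts or without knockout replicate 1, and 3 of 5 without control replicate 3), and Cnn1 at 0 in control replicate 2. Cholangiocyte markers, none at 0 in any library, summed to 255 to 589 and 536 to 1292 CPM, with 9 of 9 below 0. Spp1, also counted above with the matricellular genes, made up most of these sums, at 231 to 516 and 483 to 1154 CPM. Cftr and Krt7 had log2 fold changes of -1.87 and -1.51. Cftr passed in DESeq2 (adjusted p = 0.0381) and not in edgeR (adjusted p = 0.367). The median of the list was -1.25, with 5 genes lower at an unadjusted p under 0.05 (7.00% of all genes). Without control replicate 2 that median was -0.84, with 1 gene at that threshold (4.13%). The part of these cell types in the differences of the matrix genes was not tested.

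Hepatocyte markers were higher on average in the knockout livers, at 136300 to 155200 summed CPM in the knockout and 74380 to 133200 in the control livers, with 0 of 10 below 0. Hnf4a, Serpina1a and Apoa1 had log2 fold changes of 0.40, 0.51 and 0.42. Sinusoidal endothelial markers summed to 594 to 642 and 459 to 549 CPM, with 1 of 10 below 0 and Gpr182, Fcgr2b and Dnase1l3 at 0.61, 0.39 and 0.47. Macrophage markers summed to 1277 to 1908 and 1097 to 1644 CPM, with 2 of 10 below 0 and Adgre1, Timd4 and Vsig4, of smallest p, at 0.42, 1.18 and 0.75. Those below 0 were Ccr2 and Trem2, at -0.50 and -0.02. Itgam, Cd68, Gpnmb, Csf1r and Clec4f were at 0.03, 0.13, 0.13, 0.28 and 0.76, so that the size of the difference varied widely within the list. By total counts the numbers below 0 in the hepatocyte, sinusoidal endothelial and macrophage lists were 1, 2 and 5 of 10, with the medians 0.39, 0.33 and 0.19 above that of all genes. After TMM scaling the hepatocyte median was 0.37 above that of all genes, and 0.10 above it without control replicate 2. Macrophage markers below 0 were 5 of 10 when control replicate 1 or knockout replicate 2 was left out, and 1 of 10 when control replicate 2 or knockout replicate 3 was. The sinusoidal endothelial sums did not overlap between the groups after TMM scaling, and by total counts they did. Of these endothelial markers 5 were higher at an unadjusted p under 0.05, as were 3 macrophage and 1 hepatocyte markers (3.75% of all genes). None passed after adjustment in edgeR. By total counts 0 markers of each list were higher at that threshold (134 of all 13197 genes). Without control replicate 2 the endothelial number was 1 (467 of all 13283 genes). Platelet and megakaryocyte markers, a source of stored thrombospondin-1, summed to at most 5.77 CPM, and only Itga2b and Pf4, at 0.10 and 0.00, were high enough to be tested.

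**Figure D5:**
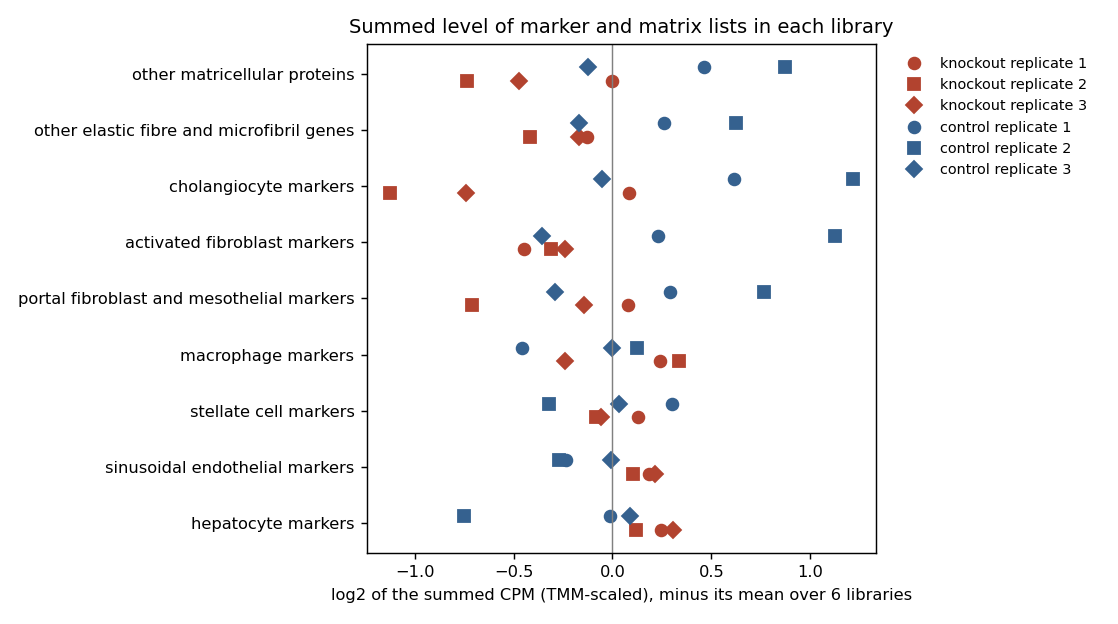
Summed CPM (TMM-scaled) of 9 gene lists in each library, as log2 minus the list's mean over the 6 libraries; red knockout, blue control, with circle, square and diamond for replicates 1, 2 and 3. Control replicate 2 (blue square) is the highest point for 5 lists, activated fibroblast markers among them, and the lowest for hepatocyte, sinusoidal endothelial and stellate cell markers, of which by total counts for hepatocyte markers alone.

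The genes whose course over the 6 libraries was most like the median of the 10 were Atp11a, Adamts10, Nck2, Trim35 and Ezr. Likeness was the root mean square difference between centred log2 CPM profiles among 10021 genes with a mean of at least 5 CPM, and it was 0.0780 for Atp11a, 0.0827 for Adamts10, 0.0833 for Nck2 and 0.0838 for Trim35. Within the list Lum was the closest to that median, at 0.0619, and Fn1 the furthest, at 0.641. Atp11a stood at 20.2, 16.6 and 13.4 CPM in the knockout livers and 21.9, 32.2 and 14.5 CPM in the control livers. Its order of libraries, with control replicate 2 first, is a description of these 6 livers.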

How the data were processed

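Estimated counts and TPM per gene were made by the authors and deposited as 1 table; the submitters' processing notes name GRCm38 and, without saying which did what, RSEM 1.3.3, HISAT2 2.2.1, DESeq2 1.38.3 and fastp 0.23.2. The deposited estimated counts are not normalized, and 6.93% of the values are not whole; they were rounded. The deposited TPM are scaled to length and were used for levels between genes. Libraries were strand-specific per the labels, but the sources used here do not say whether counting used strand; Eln, Fbn1, Fn1 and Thbs1 overlap a gene on the other strand.

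edgeR 4.0.16 (R 4.3.3; TMM, filterByExpr, robust quasi-likelihood fit, Benjamini-Hochberg at 0.05) was fitted to 13197 genes; standard errors were derived from each fold change and F statistic. log2 CPM used a prior count of 2. Alternatives were DESeq2 1.42.0, limma 3.58.1 (voom, and log2 TPM with 1 or 0.1 added), other scalings and filters, a replicate block and each library left out. On simulated data for this comparison (13197 genes, 200 changed, drawn from genes of higher counts) edgeR recovered 66% of 2-fold and 96% of 4-fold changes, with 7 false calls among 169, and DESeq2 79% and 98%, with 34 among 211.

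The 10 genes, the 15 other lists and the tests were chosen with earlier results of these data known. Named are the 10 genes, from each list the 3 of smallest unadjusted p, and the 5 most alike. Some other genes of the lists are also named, chosen after their values were seen. Lox is in 2 of these lists, as are Spp1, Sdc4 and Des. The 3 mice of a group are described as biological replicates; no 2 libraries held identical values. Depth (16704663 to 21025466 counts) gave each of the 10 genes at least 144 counts per library, so that the spread between livers, not counting error, limits precision. Positions are from GENCODE M21. Figures used Python 3.11.15 and matplotlib 3.10.9.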

Additional observations from a re-analysis of the deposited data

How the results depend on the processing

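The number of genes past edgeR's adjusted threshold was 0 under all 6 libraries, RLE and total-count scaling, both other filters, limma-voom and both TPM fits, 127 in DESeq2, and 0 to 2 when 1 library at a time was left out. With the replicate number as a block it was 5. The numbers were not taken as pairs, since deviations of same-numbered livers correlated at 0.115, -0.00678 and 0.133. None of the 10 matrix genes passed in any fit. Of the 10, 9 were below 0 in every fit except that without control replicate 2, with 8; by total counts 78.8% of all genes were. Their median ran from -0.90 (total counts) to -0.58 (limma-voom) over the fits of 6 libraries, and from -0.85 to -0.29 with 1 library left out. Relative to all genes, whose median was -0.21 by total counts and -0.20 in log2(TPM + 1), it was -0.69 and -0.63. The number of genes lower in every knockout than in every control library, 0 by TMM with the main filter, was 2 by total counts and in both TPM fits (19.5% and 18.6% of all genes), 1 with no filter on low counts (8.15%), and 0 to 7 with 1 library left out (11.5% to 17.7%). Thbs2 ran from -0.72 without control replicate 3 to 0.12 without control replicate 2. The cause of these shifts was not tested. Sting1 was below 0 in all fits, at -1.28 with an adjusted p of 0.00197 in DESeq2. Leaving out libraries for the other lists was chosen after seeing the data.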

Other observations

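Promoters of 5 of the 10 genes were matched by symbol in RefSeq on GRCm38.p6: Bgn, Fbn1, Sparc and Thbs2 with 1 start and Postn with 2. Each window runs from 250 bases before to 50 bases after a start. The motifs searched, on both strands, were GGAATG (bound by TEAD factors), TGANTCA (bound by AP-1) and CACGTG (the E-box). None of the 6 windows held any of them, and 14.7%, 7.81% and 7.15% of 32851 windows of the same length did. At such shares 6 windows are too few to show a difference. No match says only that these letters are not in these windows.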
